A study of Mus musculus with 6 samples.

Results

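Toll-like receptors (TLRs) are the innate immune receptors that recognise conserved molecules of microbes and of damaged cells. The 10 genes described here, *Tlr1* to *Tlr9* and *Tlr13*, were taken by symbol from the 55401 genes counted in subcutaneous white adipose tissue (scWAT), and all 10 passed the filter on low counts. They were chosen with the contrast between the genotypes known, so their values in that contrast are a description and carry no test. All 6 male mice had floxed alleles of *Yap* and *Taz*, and total scWAT RNA of each was sequenced. Cre recombinase was absent in 3 of them (YT-FF, which the sample labels call WT) and was driven by the *Adipoq* promoter, active in mature adipocytes, in the other 3 (YT-AKO). The mice of both groups were 8 weeks old. Only the YT-AKO mice carried Cre, so the presence of Cre and the loss of the floxed genes cannot be told apart. No source states whether the mice were littermates, and all p-values measure only the spread between these samples.

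TLRs on the cell surface recognise lipids and proteins of the microbial envelope, whereas those in endosomes recognise nucleic acids and reach them with the chaperone UNC93B1. Most signal through the adaptor MYD88 to NF-kB and interferon regulatory factors, and TLR3 signals through TICAM1 (TRIF). In adipose tissue they are known from macrophages, dendritic cells and B cells, and TLR4 also from adipocytes and preadipocytes.

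Sequences of 3 promoters are shown because they belong to the receptor with the largest difference (*Tlr9*), the member whose profile lay nearest to it (*Tlr8*) and the only member with a log2 fold change above 0 (*Tlr2*). Each is the RefSeq sequence of GRCm38.p6 from 250 bases before to 50 after the transcription start, written 5′ to 3′ on the strand of the gene. They lie at chr9:106222348-106222647 on the plus strand, chrX:167264280-167264579 on the minus strand and chr3:83841559-83841858 on the minus strand, in this order. Capitals mark matches to GAGGAA, the core recognised by PU.1 (read as TTCCTC on the other strand), and to ATGCAAAT, the octamer bound by OCT factors.
Tlr9: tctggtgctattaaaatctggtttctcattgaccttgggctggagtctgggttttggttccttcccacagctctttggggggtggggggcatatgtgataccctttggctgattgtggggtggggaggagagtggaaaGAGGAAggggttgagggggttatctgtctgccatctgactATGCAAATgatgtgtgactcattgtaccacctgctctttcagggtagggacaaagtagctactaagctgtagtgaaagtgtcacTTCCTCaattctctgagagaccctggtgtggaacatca
Tlr8: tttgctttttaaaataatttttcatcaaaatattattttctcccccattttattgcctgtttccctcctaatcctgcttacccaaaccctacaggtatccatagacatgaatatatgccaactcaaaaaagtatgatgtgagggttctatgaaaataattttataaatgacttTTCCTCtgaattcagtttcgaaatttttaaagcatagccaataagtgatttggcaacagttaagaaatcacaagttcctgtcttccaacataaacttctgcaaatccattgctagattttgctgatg
Tlr2: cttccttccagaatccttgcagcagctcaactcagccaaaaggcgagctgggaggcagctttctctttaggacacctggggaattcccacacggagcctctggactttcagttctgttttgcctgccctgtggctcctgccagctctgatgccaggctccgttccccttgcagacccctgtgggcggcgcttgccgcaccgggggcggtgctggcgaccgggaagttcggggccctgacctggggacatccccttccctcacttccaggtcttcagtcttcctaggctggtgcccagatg

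The *Tlr9* window held GAGGAA at positions 139 to 144 and, on the other strand, 263 to 268, and ATGCAAAT at 179 to 186, counted from its first base. The *Tlr8* window held GAGGAA on the other strand at 174 to 179, and the *Tlr2* window held neither. GAGGAA was also in windows of *Tlr1* and *Tlr13*, so in 4 of the 10 windows searched. On both strands, GAGGAA was present in 28.3% and ATGCAAAT in 1.74% of 32851 promoters of the same length, so the first is a frequent word. An interferon-stimulated response element (found in 3.44% of promoters) and an NF-kB motif (0.411%) were each searched for as a single fixed pattern. The patterns matched neither these 3 windows nor those of *Tlr1*, *Tlr5* and *Tlr13*, and matched *Tlr6* and *Tlr3*, respectively. Other forms of these motifs were not searched for, so a window without a match, such as that of *Tlr2*, can still hold such a site. The search covered 10 windows of 8 members, since *Tlr4* and *Tlr7* were not in the promoter table. A match is a description of the letters, not of binding. The *Tlr9* window contained 0 CG dinucleotides at 49.7% GC, against 11 at 62.0% in *Tlr2* and 1 at 32.3% in *Tlr8*.

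The libraries differed in ways that bear on all members. They held 17740987 to 21838493 counted fragments, and 3 counts, the floor used for detection, were 0.128 to 0.177 CPM (counts as a share of the library total, scaled by TMM factors), a value that covers counting error only. The TMM factors were 1.07 to 1.16 in YT-FF and 0.777 to 0.955 in the libraries labelled YT-AKO, with the lowest in YT-AKO 2. YT-AKO 2 also stood apart over all genes. A chi-square per gene, which grows as 2 libraries differ beyond their totals, was 177 against YT-AKO 1 and 161 against YT-AKO 3. It was 31.9 between YT-AKO 1 and YT-AKO 3, and 12.95, 36.0 and 34.2 between pairs of YT-FF libraries. Longer genes tended to have lower fold changes, with a Spearman's rho of -0.376 across tested genes (genes are not replicates of a condition), or -0.283 without YT-AKO 2. *Yap1*, a targeted gene, was lower in the libraries labelled YT-AKO by a log2 fold change of -0.98 (SE 0.167, edgeR quasi-likelihood test, adjusted p = 0.018). *Wwtr1*, which encodes TAZ, went against the label, with a log2 fold change of 0.89 (SE 0.182, edgeR, adjusted p = 0.022). Counts were summed over all exons, so the loss of single exons was not visible, and the groups are therefore named by their labels. At the protein level, the paper reported by immunoblot that YAP and TAZ were decreased in scWAT of YT-AKO mice. Adipocyte markers were high in every library, with *Adipoq*, which encodes adiponectin, at 1473 to 2402 CPM, and transcripts of lymph node stroma were present too, with *Cxcl13*, a chemokine of B cell follicles, at 74.3 to 131 CPM.

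*Tlr9*, the endosomal receptor for unmethylated CpG DNA, had the largest difference of the family. The YT-FF libraries 1, 2 and 3 held 539, 560 and 323 of its fragments, and those labelled YT-AKO held 122, 13 and 105. In CPM these were 23.0, 24.6 and 16.6 against 7.09, 0.767 and 6.20, or 21.4 ± 4.21 against 4.69 ± 3.42 (mean ± SD, n = 3 each). Each YT-FF library was above every library labelled YT-AKO, and YT-AKO 2 lay far below the others. That library stood apart over all genes, and other genes had few counts in it too, such as *Lrch3* with 18. The log2 fold change of *Tlr9* was -2.19 (SE 0.635), -1.69 without YT-AKO 2 and -2.23 with a correction for gene length. In bulk tissue, fewer cells of a type and less RNA per cell cannot be told apart.

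Levels can be compared between receptors per transcript length, in TPM. They are compared within a group only, since 54.5% of all tested genes were lower in TPM without overlap in the libraries labelled YT-AKO and 7.52% higher. *Tlr9* ranked second in YT-FF by median TPM (25.4, range 17.2 to 27.9), below *Tlr1* (70.6, 45.7 to 75.1), whose range did not overlap it. The range of *Tlr9* did overlap that of *Tlr2*, the next in the order (11.8 to 19.5). In the libraries labelled YT-AKO *Tlr9* ranked seventh, at a median of 4.85 TPM (0.386 to 5.69). In YT-FF, *Tlr2*, *Tlr3*, *Tlr4*, *Tlr7* and *Tlr13* followed with medians from 16.1 down to 10.6 TPM, and the range of each overlapped that of its neighbour in the order. *Tlr5* came next (7.46, 6.24 to 8.58) and did not overlap *Tlr8* (4.75) and *Tlr6* (3.91) below it. In the libraries labelled YT-AKO every pair of neighbours in the order overlapped, from *Tlr1* (median 21.0 TPM) through *Tlr2* (10.2), *Tlr4* (8.43), *Tlr7* (7.64), *Tlr3* (6.57), *Tlr13* (5.67), *Tlr9*, *Tlr5* (3.42) and *Tlr6* (2.17) to *Tlr8* (1.63).

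**Figure D1:**
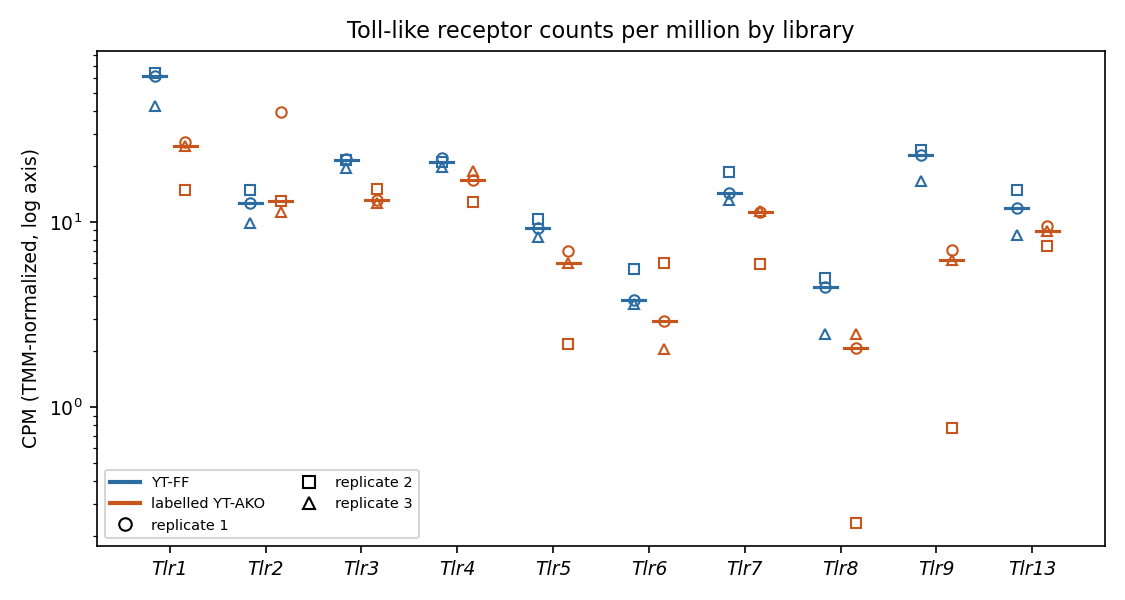
Levels of the 10 receptors in CPM, on a log axis, with a point for each library of the YT-FF group and of the group labelled YT-AKO and a line at the group median. *Tlr9* lies at 16.6 to 24.6 CPM in YT-FF and at 0.767 to 7.09 CPM in YT-AKO, whereas *Tlr2* has 1 high library, YT-AKO 1, at 39.3 CPM.

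The exons of *Tlr9* were checked for reads of other genes. The gene (ENSMUSG00000045322.10) lies on the plus strand of chromosome 9 at 106222598 to 106226883 (mm10) with 2 exon blocks and 3478 exon bases, of which 0 were shared with exons of another gene. None of its 3429 words of 50 bases occurred in transcripts of other genes. Its closest neighbours were *Alas1*, which encodes the first enzyme of heme synthesis, at 6572 bases and *Twf2*, which encodes an actin-binding protein, at 7209 bases. *Alas1* was higher, at 505 to 680 CPM in the libraries labelled YT-AKO against 266 to 286 in YT-FF (log2 fold change 1.09, SE 0.181, edgeR, adjusted p = 0.018). *Twf2* had 58.3 to 121 CPM against 46.3 to 48.3 and was not called (log2 fold change 0.77, SE 0.285, edgeR, adjusted p = 0.085).

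Of the other members only *Tlr3* (chromosome 8, 45395665 to 45411080) had exon bases in common with another gene. It shared 381 (7.32%), none of them coding, with *Gm45542* on the opposite strand, which had 0 counts in all libraries. *Tlr1* and *Tlr6* are neighbours on chromosome 5, and 15.4% of the 50-base words of *Tlr1* and 12.3% of those of *Tlr6* recurred in other genes, mostly in each other. Their longest shared run, shown because fragments wholly inside it cannot be assigned to either receptor, had 229 bases of coding sequence, at chr5:64925537-64925765 in *Tlr1* and chr5:64953828-64954056 in *Tlr6*, both on the minus strand.
Tlr1 and Tlr6: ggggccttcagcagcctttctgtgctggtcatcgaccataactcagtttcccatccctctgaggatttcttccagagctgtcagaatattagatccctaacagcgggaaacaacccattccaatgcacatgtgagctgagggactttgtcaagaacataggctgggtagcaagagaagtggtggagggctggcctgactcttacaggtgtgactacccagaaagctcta
Fragments that aligned to several places were not counted, so the counts of both receptors are minimum values. The remaining members recurred in other genes in 0.216% (*Tlr4*) or 0 (*Tlr2*, *Tlr5*, *Tlr7*, *Tlr8* and *Tlr13*) of their words.

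Across the family, the log2 fold change was below 0 for 9 of 10 members, with a median of -0.65 against -0.02 over all 16807 tested genes. In the edgeR fit, 3 receptors (*Tlr1*, *Tlr3* and *Tlr9*) passed an adjusted p of 0.05 as lower and 0 as higher, where 9.01% of all tested genes passed as lower and 12.6% as higher. At an adjusted p of 0.01 with a log2 fold change beyond 1, 0 receptors passed, and 0.125% of all genes did. The number of receptors called lower at 0.05 was 0 with the replicate number as a block, and 0 without YT-FF 1 or YT-FF 2. It was 1 without YT-FF 3 or YT-AKO 3, and 2 with the correction for gene length, without a filter or without YT-AKO 1. The groups did not overlap in CPM for 6 receptors (*Tlr1*, *Tlr3*, *Tlr4*, *Tlr5*, *Tlr7* and *Tlr9*), all lower, and for 0 as higher, against 25.8% and 25.7% of all genes. Because the members were chosen with this contrast known, nothing is read from these shares. The summed CPM of the 10 receptors was 144 to 200 in YT-FF and 78.3 to 136 in the libraries labelled YT-AKO.

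**Figure D2:**
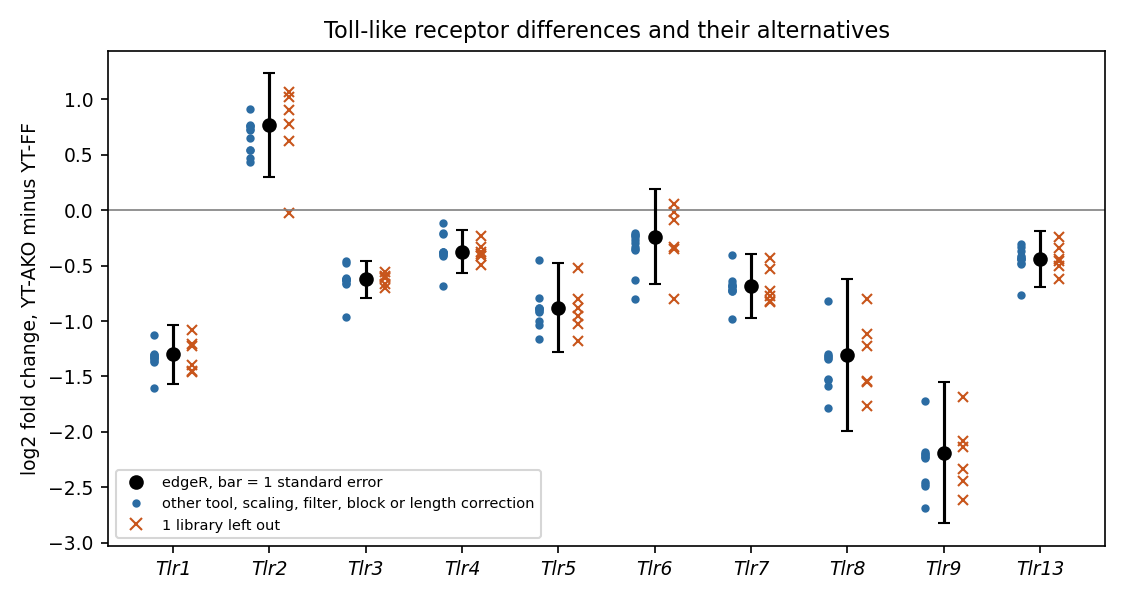
Log2 fold change of each receptor, YT-AKO minus YT-FF, with the edgeR value and 1 standard error in black, other tools and settings as blue points and fits that leave out 1 library as orange crosses. *Tlr9* stays between -2.69 and -1.69, whereas *Tlr2* falls to -0.03 without YT-AKO 1 and *Tlr6* lies on both sides of 0.

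*Tlr1*, *Tlr2* and *Tlr6* recognise bacterial lipoproteins as pairs, TLR2 with TLR1 for triacylated and with TLR6 for diacylated forms. *Tlr1* had 61.5, 63.6 and 42.4 CPM in YT-FF and 27.2, 14.9 and 25.8 in the libraries labelled YT-AKO. All 3 YT-FF libraries were higher, and the log2 fold change was -1.30 (SE 0.270), or -1.36 with the correction for gene length. *Tlr2*, the partner of both, had 12.7, 14.9 and 9.84 CPM against 39.3, 12.9 and 11.3. The groups overlapped, and a single library, YT-AKO 1, stood above the other 5. Its log2 fold change of 0.77 (SE 0.469) became -0.03 without that library. *Tlr6* had 3.79, 5.58 and 3.60 CPM against 2.91, 6.02 and 2.07. Its highest and its lowest library were both labelled YT-AKO, and the log2 fold change was -0.24 (SE 0.430), or 0.06 without YT-AKO 3 and -0.80 without YT-AKO 2.

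*Tlr4* and *Tlr5* complete the surface receptors, for lipopolysaccharide and flagellin. *Tlr4* had 22.2, 21.0 and 19.7 CPM in YT-FF and 16.8, 12.8 and 19.0 in the libraries labelled YT-AKO. The groups did not overlap, but the closest libraries lay at 19.0 and 19.7 CPM (log2 fold change -0.37, SE 0.195). The log2 fold change was -0.20 with the correction for gene length, and -0.12 with that correction and without YT-AKO 2. *Tlr5* had 9.29, 10.4 and 8.29 CPM against 6.98, 2.18 and 6.03. It was lowest in YT-AKO 2, and the log2 fold change of -0.88 (SE 0.401) was -0.52 without that library.

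*Tlr3*, the endosomal receptor for double-stranded RNA, had 21.8, 21.6 and 19.6 CPM in YT-FF and 13.2, 15.1 and 12.6 in the libraries labelled YT-AKO. The spread within each group was small, with SDs of 1.25 and 1.31 CPM, and the groups did not overlap (log2 fold change -0.62, SE 0.169). With the correction for gene length the log2 fold change was -0.46. Unlike *Tlr9*, *Tlr3* was not lowest in YT-AKO 2 in CPM. In TPM it was, at 5.08 against 7.07 and 6.57 in YT-AKO 1 and YT-AKO 3.

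*Tlr7* and *Tlr8*, endosomal receptors for single-stranded RNA, lie 40600 bases apart on the X chromosome. *Tlr7* had 14.4, 18.6 and 13.2 CPM in YT-FF and 11.3, 5.96 and 11.5 in the libraries labelled YT-AKO. The groups did not overlap (log2 fold change -0.68, SE 0.292), and the value without YT-AKO 2 was -0.44. *Tlr8* had few reads, with 104, 114 and 48 counts against 36, 4 and 42. Its groups met at YT-FF 3 and YT-AKO 3, with 2.47 and 2.48 CPM, and the log2 fold change was -1.31 (SE 0.687), or -0.80 without YT-AKO 2.

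*Tlr13*, which recognises bacterial ribosomal RNA in endosomes, had 11.8, 14.9 and 8.50 CPM in YT-FF and 9.53, 7.43 and 8.98 in the libraries labelled YT-AKO. The groups overlapped, and the log2 fold change was -0.44 (SE 0.254). The remaining mouse receptors of the family, *Tlr11* and *Tlr12*, which are not among the 10, had log2 fold changes of -0.70 (SE 0.275) and -0.03 (SE 0.293).

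In CPM, YT-AKO 2 was the lowest of all 6 libraries for *Tlr1*, *Tlr4*, *Tlr5*, *Tlr7*, *Tlr8*, *Tlr9* and *Tlr13*, and the highest for *Tlr6*. In TPM it was, among the libraries labelled YT-AKO, also the lowest for *Tlr2* (7.51) and *Tlr3* (5.08). The profile of *Tlr9* over the 6 libraries, centred on its own mean in log2 CPM, lay nearest to that of *Tlr8* among the members, at a root mean square difference of 0.53. *Tlr5* (0.94) and *Tlr1* (0.97) followed, and *Tlr2* and *Tlr6* were farthest (1.82 each). *Tlr9* and *Tlr8* both deviated most from their means in YT-AKO 2, by -3.29 and -2.70, and in YT-AKO 3 by -0.43 and 0.23. Among all tested genes with a mean of at least 1 CPM, the nearest to *Tlr9* was *Lrch3*, a leucine-rich repeat gene, at 0.119. Counts of *Lrch3* were 573, 656 and 369 in YT-FF against 143, 18 and 109 in the libraries labelled YT-AKO. The next 9, up to a difference of 0.237, were *Trbj1-4*, *9830144P21Rik*, *Zc3h11a*, *Gm47260*, *Ryr3*, *Gm37581*, *4930518I15Rik*, *Pdpr* and *Gm37019*. *Trbj1-4* is a joining segment of the T cell receptor beta locus with 51 exon bases, *Ryr3* encodes a calcium release channel and *Pdpr* a regulatory subunit of pyruvate dehydrogenase phosphatase. By annotation, 5 of the 10 are protein-coding, 3 are unverified models, 1 is a joining segment and 1 a processed transcript. Each had its fewest counts in YT-AKO 2, from 0 to 24. The likeness is a description over 6 libraries that share depth and processing.

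**Figure D3:**
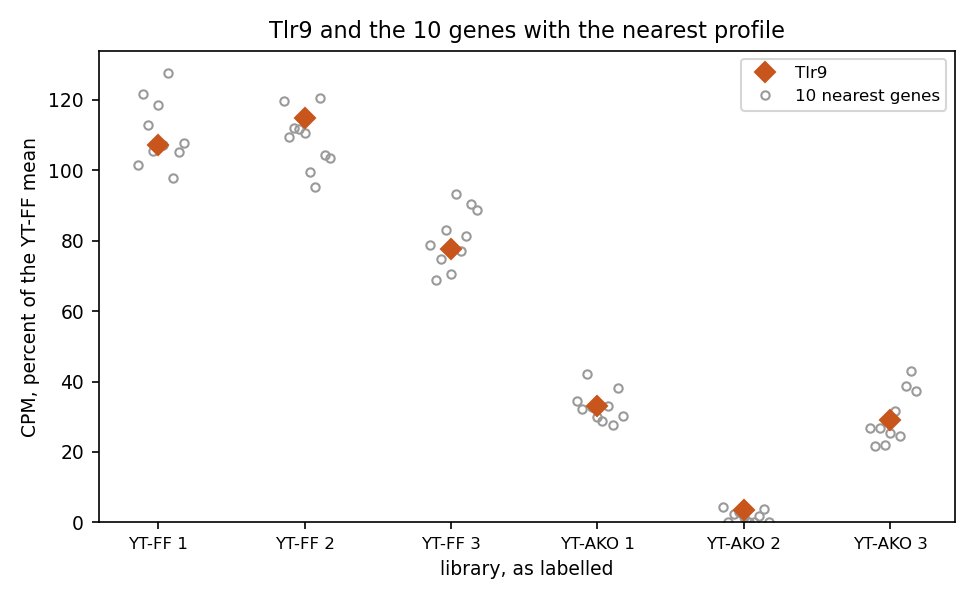
CPM as a percent of the YT-FF mean for *Tlr9* (filled diamonds) and the 10 genes with the nearest profile (open circles, spread sideways for legibility) in each library. All 11 genes are near 0 in YT-AKO 2, where *Tlr9* has 13 counts and *Lrch3* 18.

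Markers of the cells that carry TLRs moved in different directions, by calls that were lost (0 of all marker genes passed, 22 at an unadjusted p under 0.05) without YT-FF 1 or without YT-FF 2. Among all tested genes 9.01% fell and 12.6% rose (edgeR, adjusted p under 0.05), so nothing is read from the short lists with 1 called gene. Of the 10 B cell markers, 7 fell and 0 rose by the same threshold, with a median log2 fold change of -0.98. *Bank1*, a scaffold of B cell receptor signalling, fell by 1.48 on the log2 scale (SE 0.161, edgeR, adjusted p = 0.012), whereas *Cd79a*, a chain of the B cell receptor complex, had -0.14 (SE 0.207, edgeR, adjusted p = 0.62). The summed CPM of the list was 1452 to 1755 in YT-FF and 823 to 1142 in the libraries labelled YT-AKO. *Tlr9* was 1.35%, 1.40% and 1.15% of that sum in YT-FF and 0.835%, 0.0671% and 0.754% in the libraries labelled YT-AKO, and the groups did not overlap. By the same measure *Tlr2* was higher without overlap (0.677% to 0.846% against 1.13% to 4.63%), and the other 8 receptors overlapped. Of all tested genes, 2.23% were lower and 51.5% higher without overlap per B cell marker sum, and nothing is read from the receptors' counts, since they were chosen with these values known. The part of the B cell markers in the *Tlr9* difference was not tested.

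Of the 10 macrophage markers, 4 rose and 0 fell, where 12.6% of all tested genes rose and 9.01% fell. *C1qa*, a subunit of complement C1q, rose by 1.73 on the log2 scale (SE 0.292, edgeR, adjusted p = 0.018). The other 3, named after their values were seen, were *C1qb*, *C1qc* and the antibody receptor *Fcgr1*, which rose by 1.38, 1.29 and 0.91. The summed CPM was 669 to 716 in YT-FF and 1117 to 1425 in the libraries labelled YT-AKO. The 3 C1q subunits made up 268 to 283 and 624 to 1048 CPM of it, and the other 7 markers 391 to 448 and 378 to 494 CPM, where the groups overlapped. *Adgre1* (log2 fold change 0.36), *Csf1r* (0.16), *Cd68* (0.42), *Mrc1* (0.20), *Cd163* (-0.17) and *Mertk* (-0.31) did not pass. Relative to that sum, every receptor except *Tlr2* was lower without overlap, as were 63.4% of all tested genes (3.68% were higher), so nothing is read from that count. *Tlr9* was 2.47% to 3.44% of the sum in YT-FF and 0.0538% to 0.635% in the libraries labelled YT-AKO. In the T cell list 3 of 8 genes fell and 0 rose, including *Cd28*, a costimulatory receptor (log2 fold change -1.37, SE 0.204, edgeR, adjusted p = 0.017). *Cd4*, a coreceptor named after its values were seen, had -0.89, while *Lck*, a T cell kinase, had -0.03 (SE 0.248, edgeR, adjusted p = 0.94). The receptor chains *Cd3d* (log2 fold change 1.20, SE 0.605, edgeR, adjusted p = 0.17) and *Cd3g* (0.45, SE 0.465, edgeR, adjusted p = 0.49) did not pass. *Cd3d* had 165 CPM in YT-AKO 2 and 31.5 to 35.8 in the other libraries. The summed CPM of the list overlapped, at 387 to 597 in YT-FF and 316 to 662 in the libraries labelled YT-AKO. In the plasmacytoid dendritic cell list, whose cells are also known for TLR7 and TLR9, 1 of 5 fell (*Ccr9*, a chemokine receptor, -1.22, SE 0.324, edgeR, adjusted p = 0.037). *Siglech*, a surface receptor of these cells, had -0.41 (SE 0.248, edgeR, adjusted p = 0.25). *Cox6a2*, *Klk1* and *Pacsin1*, named after their values were seen, had 1.45, 0.59 and -0.64 and did not pass. The summed CPM of that list was 47.0 to 69.1 in YT-FF and 34.5 to 51.4 in the libraries labelled YT-AKO, and the groups overlapped. In the conventional dendritic cell list 1 of 5 fell (*Flt3*, a growth factor receptor, -0.64, SE 0.182, edgeR, adjusted p = 0.043), and the summed CPM was 81.6 to 94.3 against 64.9 to 71.6.

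*Zbtb46*, a dendritic cell transcription factor, had -0.25 (SE 0.151, edgeR, adjusted p = 0.25).

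Of the cells of vessels and stroma, 1 of 5 endothelial markers fell, where 9.01% of all tested genes fell and 12.6% rose. It was the VEGF receptor *Kdr* (log2 fold change -0.78, SE 0.203, edgeR, adjusted p = 0.036). The adhesion receptor *Pecam1* had -0.20 (SE 0.152, edgeR, adjusted p = 0.35). Of 6 fibroblast and progenitor markers *Dpp4*, a surface peptidase, fell by 0.79 (SE 0.201, edgeR, adjusted p = 0.033) and *Pi16*, named after its values were seen, rose by 0.75. *Col3a1*, a collagen gene, had 0.51 (SE 0.260, edgeR, adjusted p = 0.18). Of 6 adipocyte markers 1 rose, *Lipe*, which encodes hormone-sensitive lipase (0.84, SE 0.247, edgeR, adjusted p = 0.048), and *Adipoq* had 0.43 (SE 0.220, edgeR, adjusted p = 0.18). In the edgeR fit 0 of 2 tested neutrophil markers (1 at an unadjusted p under 0.05) and 0 of 4 lymph node stroma markers (0 unadjusted) passed, 0 of either did with limma-voom, and DESeq2 called *Cxcr2*, a neutrophil chemokine receptor named after its values were seen, as lower and 0 lymph node stroma markers. *Csf3r*, a cytokine receptor of neutrophils, had 0.13 (SE 0.577, edgeR, adjusted p = 0.88) and *Cxcl13* -0.29 (SE 0.214, edgeR, adjusted p = 0.34). YT-AKO 2 stood apart for the lymphoid chemokines *Ccl19*, with 526 counts against 6 to 46 in the other libraries (log2 fold change 3.52, SE 1.54, edgeR, adjusted p = 0.13), and *Ccl21a*, with 144 against 1 to 15, which was not tested. Both were named after their values were seen. The neutrophil marker *Ly6g*, named after its values were seen, had 2 counts in 1 library and 0 in the others. Whether these cell markers account for any receptor difference was not tested.

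The other genes of the TLR pathway were grouped by role into 8 lists of 77 genes, of which 73 were tested. In the edgeR fit 7 rose, 9 fell and 57 did not pass, with a median log2 fold change of -0.10. Among all tested genes 12.6% rose and 9.01% fell. By the same fit, 28 of the 73 had an unadjusted p under 0.05. Without YT-FF 1 or without YT-FF 2, 0 pathway genes passed (20 and 19 at an unadjusted p under 0.05), without YT-FF 3, 1 rose and 4 fell, and with library totals in place of TMM, 2 rose and 19 fell. Over 17 alternatives the calls of the 16 genes held in 5 (*Rela*) to 13 settings. With the correction for gene length, the calls of *Cnpy3*, *Ticam1*, *Ikbkb*, *Irf8*, *Rela* and *Cyld* were lost and the others held. The gene given below as highest in a list is the one with the highest mean TPM over the 6 libraries.

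Among 7 ligands 1 rose. *Saa3*, an acute phase protein that activates TLR2 and TLR4, had 0.298, 0.483 and 0.618 CPM in YT-FF and 12.5, 3.36 and 1.65 in the libraries labelled YT-AKO (log2 fold change 3.64, SE 0.796, edgeR, adjusted p = 0.025). It was highest in YT-AKO 1, the library in which *Tlr2* was highest. Its call held in 10 of 17 alternatives and was lost with limma-voom and without each YT-FF library. *Bgn*, a matrix proteoglycan and the ligand gene with the highest level, did not pass (0.17, SE 0.208, edgeR, adjusted p = 0.56).

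Among 10 co-receptors and chaperones, which present ligands or carry receptors to their compartment, 1 rose and 2 fell. *Cd180*, a B cell relative of TLR4, fell by 1.34 (SE 0.275, edgeR, adjusted p = 0.022) and *Lbp*, the lipopolysaccharide-binding protein, by 1.23 on the log2 scale (SE 0.293, edgeR, adjusted p = 0.029). *Cnpy3*, a chaperone for TLR folding, rose by 0.62 (SE 0.157, edgeR, adjusted p = 0.034). *Cd36*, a lipid receptor that works with TLR2 and TLR6, had the highest level and a log2 fold change of 0.03 (SE 0.274, edgeR, adjusted p = 0.93). The exons of *Cd180* overlap those of another gene in 4.04% of their bases.

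Among 5 endolysosomal proteases, which cleave TLR9 and its relatives into their signalling form, 3 rose and 0 fell. Of all tested genes 12.6% rose and 9.01% fell. *Ctsk*, cathepsin K, rose from 32.9 to 35.5 CPM in YT-FF to 61.6 to 84.7 CPM (log2 fold change 1.10, SE 0.166, edgeR, adjusted p = 0.017). *Lgmn*, asparagine endopeptidase, rose by 0.85 (SE 0.170, edgeR, adjusted p = 0.021) and *Ctsb*, cathepsin B and the most highly expressed of the list, by 0.78 (SE 0.207, edgeR, adjusted p = 0.037). The calls of *Lgmn* and *Ctsb* were lost with library totals in place of TMM, and that of *Ctsb* held in 8 of 17 alternatives. Exons of *Ctsb* overlap those of another gene in 12.8% of their bases. The part of the macrophage markers, of which 4 of 10 also rose, in the protease result was not tested.

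Among 6 adaptors 1 rose and 1 fell. *Pik3ap1*, an adaptor that links TLRs to PI3K and is known from B cells, fell by 1.13 on the log2 scale (SE 0.254, edgeR, adjusted p = 0.026), and *Ticam1*, the TRIF adaptor of TLR3 and TLR4, rose by 0.84 (SE 0.222, edgeR, adjusted p = 0.037). *Myd88*, the adaptor of most TLRs, had the highest mean TPM of the list (but not the highest CPM) and did not pass, with 32.8 to 36.0 CPM in YT-FF and 37.5 to 49.1 CPM in the libraries labelled YT-AKO (log2 fold change 0.29, SE 0.162, edgeR, adjusted p = 0.21).

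Of all tested genes 9.01% fell and 12.6% rose. Among 14 kinases and ubiquitin ligases 3 fell and 0 rose, with a median of -0.47. They were *Tab3*, a partner of the kinase TAK1 (-0.98, SE 0.188, edgeR, adjusted p = 0.020), *Traf3*, a ubiquitin ligase (-0.92, SE 0.194, edgeR, adjusted p = 0.023), and *Ikbkb*, a kinase that releases NF-kB (-0.64, SE 0.164, edgeR, adjusted p = 0.034). The call of *Ikbkb* was lost with the correction for gene length. *Irak1*, a kinase of the MYD88 complex with the highest level of the list, had -0.12 (SE 0.170, edgeR, adjusted p = 0.62).

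Among 9 transcription factors 1 rose and 2 fell. *Rel*, the NF-kB subunit c-Rel of lymphocytes, went from 55.0 to 74.7 CPM in YT-FF to 22.5 to 31.3 CPM (log2 fold change -1.32, SE 0.196, edgeR, adjusted p = 0.017). *Irf8*, a factor of B cells and myeloid cells, fell by 0.53 (SE 0.148, edgeR, adjusted p = 0.043). *Rela*, the broadly expressed NF-kB subunit p65 and the highest of the list, rose by 0.51 (SE 0.151, edgeR, adjusted p = 0.049). The call of *Rela* held in 5 of 17 alternatives, and was lost with, among others, upper-quartile normalization, DESeq2 size factors and without each YT-FF library, and that of *Irf8* held in 7. Both were lost with the correction for gene length.

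Among 8 inhibitors 1 fell, *Cyld*, a deubiquitinase (-0.64, SE 0.144, edgeR, adjusted p = 0.026). Its call was lost with the correction for gene length. *Nfkbia*, the inhibitor IkBα and the highest of the list, had -0.17 (SE 0.265, edgeR, adjusted p = 0.66). Of 18 response genes, the cytokines and chemokines that TLR signalling induces, 14 were tested and 0 passed in the edgeR fit (1 at an unadjusted p under 0.05), 0 passed with limma-voom, and DESeq2 called 1 as higher. It was *Ccl2*, a monocyte chemokine named after its values were seen, at 3.35 to 5.11 CPM in YT-FF and 5.20 to 11.3 in the libraries labelled YT-AKO (log2 fold change 1.04, SE 0.340, edgeR, adjusted p = 0.061). *Ccl5*, a chemokine and the highest of them, had 62.2 to 103 CPM in YT-FF and 87.3 to 235 in the libraries labelled YT-AKO (0.71, SE 0.395, edgeR, adjusted p = 0.21). *Ifnb1*, the interferon that TLR3 and TLR9 can induce, had 0 counts in all libraries, which allows up to 0.128 to 0.177 CPM.

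**Figure D4:**
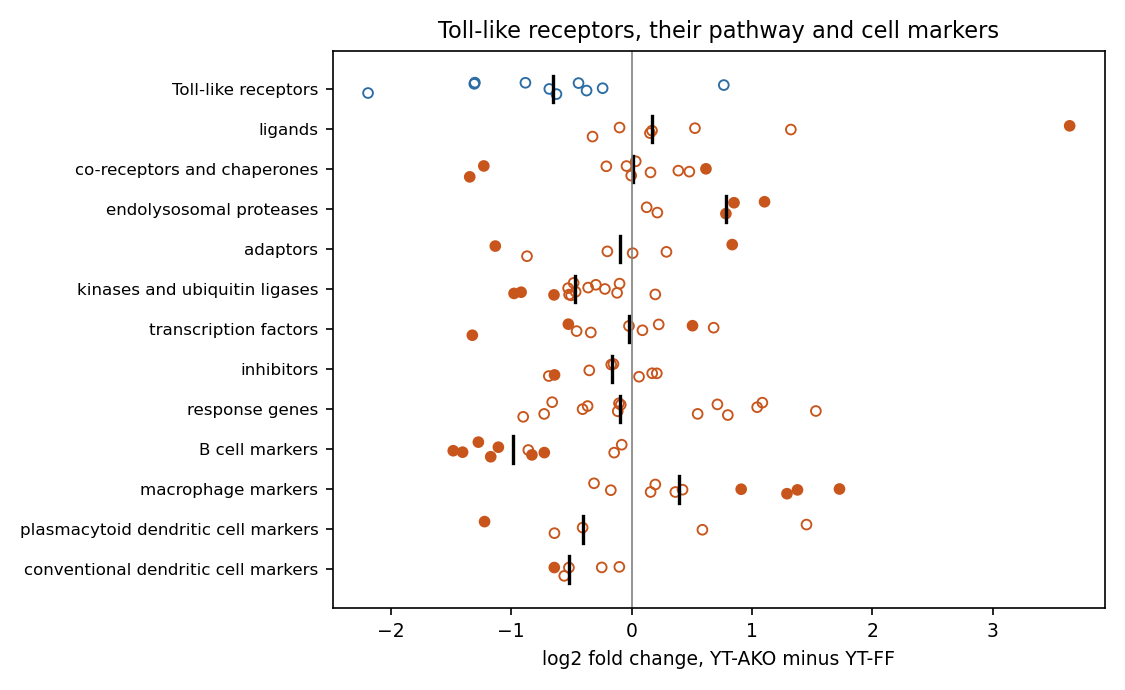
Log2 fold change of the TLRs (open blue, no call shown) and of the tested genes of the 8 pathway lists and 4 marker lists, with filled points for genes past an adjusted p of 0.05 in the edgeR fit and a black line at the median of each list. The protease list has its median at 0.78 and the kinase list at -0.47, and the response genes hold 0 filled points.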

How the data were processed

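The authors made paired-end libraries of total scWAT RNA, aligned the reads to mm10 (GRCm38) with HISAT2 (from their methods) and, per the file headers, counted fragments on the exons of GENCODE vM25 with featureCounts 2.0.1. The deposited files hold these raw counts, 1 value a gene. The command set no option for strand, multiple alignments or overlapping genes, so counts ignore strand and such fragments were left out. All 6 libraries were grouped by the genotype in their labels. The 10 members and the pathway and marker lists were chosen with earlier results of these data known.

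Of 55401 genes, 55141 were matched to symbols by identifier. In R 4.3.3, edgeR 4.0.16 (TMM, filterByExpr with minimum count 10 and minimum total 15, quasi-likelihood test, Benjamini-Hochberg over 16807 tested genes) was the main fit, with genotype as the only term. The precision depends on the spread between mice as well as on the total per library. The SE of *Tlr9* was 0.635 with all libraries and 0.216 without YT-AKO 2, the library with the largest total. Replicate values are given as mean ± SD or range, and the SE was computed from the log2 fold change and its F statistic. TPM used summed exon lengths. Sequences are from RefSeq (GRCm38.p6) and, for shared words and the shared run, GENCODE transcripts of the same build. Those transcripts, the coding sequence and the gene types came from an earlier GENCODE release than the counts. Alternatives were DESeq2 1.42.0, limma-voom (limma 3.58.1), other scalings and filters, the replicate number as a block, a gene length correction (a spline with 6 degrees of freedom) and each library left out. The fit was tested on simulated data with known changes. These had no outlying library and no trend with gene length, so the test does not cover those features of the data.

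Named were all members, in each pathway list the called genes with the 3 largest absolute log2 fold changes and the gene highest in TPM, in each marker list the called gene with the largest absolute log2 fold change and the gene highest in CPM, the 10 profiles nearest to *Tlr9*, the targeted genes and neighbours of *Tlr9*. *Ifnb1*, and where said also other genes, were named after their values were seen. Of the T cell list, 1 gene is not reported here.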

Additional observations from a re-analysis of the deposited data

How the results depend on the processing

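The direction of *Tlr9* and of the family median held under every alternative run, with *Tlr9* between -2.69 (limma-voom) and -1.69, and the counts of called genes did not hold. With DESeq2, 2392 genes were lower, and 1337 higher and 658 lower passed the stricter threshold (edgeR 15 and 6). Without a filter these were 1217 and 507. With library totals alone 1137 genes were higher and 2828 lower, 2 pathway genes rose and 19 fell, 3 markers rose, and the family median was -0.97 while that of all genes moved to -0.34. The length correction left 763 genes lower and 4 pathway genes higher. With the replicate block 24 genes were higher and 9 lower, and 0 of the strict calls, 0 pathway genes and 0 markers passed in either direction (5806 genes, 26 pathway genes and 24 markers at an unadjusted p under 0.05). With the replicate block and the length correction 59 were higher and 22 lower, and the other counts were again 0 (5091, 18 and 27 unadjusted). Same-numbered libraries had correlations of 0.126, -0.118 and -0.0893 in their deviations from the group means, so the numbers were not taken as pairs.

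Leaving out 1 library gave 0 to 2925 genes higher and 0 to 2424 lower, 0 to 619 and 0 to 324 at the stricter threshold, 0 to 8 pathway genes higher and 0 to 11 lower, and 0 to 10 markers higher and 0 to 20 lower. These include the length correction without YT-AKO 2, added after the data were seen, with 449 and 177 strict calls. *Tlr9* ranged from -2.61 to -1.69 and the family median from -0.72 to -0.53. The counts rested on YT-FF 1 and YT-FF 2: without YT-FF 1, edgeR called 0 genes (4665 at an unadjusted p under 0.05), and without YT-FF 2, 0 higher and 2 lower (4507). Without YT-FF 3 there were 704 and 528, and without YT-AKO 2 8 pathway genes rose and 11 fell. *Tlr2* without YT-AKO 1 (-0.03) and *Tlr6* without YT-AKO 3 (0.06) changed sign. Requiring 10 counts in each library kept 9 members, without *Tlr8*. The causes were not tested. The smallest counts behind a value were 4 for *Tlr8* and 13 for *Tlr9*, both in YT-AKO 2, the library with the largest total.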
